A study of Bos taurus with 6 samples.

Results

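The caspases are cysteine proteases that carry out programmed cell death, and the apoptosome is the protein wheel that APAF1 forms with cytochrome c to switch on CASP9. The genes described here are CASP2, CASP4, CASP6, CASP8, CASP9, APAF1, XIAP and CFLAR in cultured bovine granulosa cells (GC). They were taken by name, as every transcript cluster of the deposited table whose gene symbol equals one of these names. A transcript cluster is the unit by which the array measures a gene. All 8 genes were found, each with 1 transcript cluster, among 26773 transcript clusters in all.

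Primary GC of Bos taurus were plated at normal or at high density, 3 cultures each, and both groups were kept for 9 days in serum-free medium with FSH, IGF-1 and androstenedione. Each culture came from GC pooled from follicles of many cows of unknown cycle stage and stored frozen, and the sources used here do not say whether both densities were plated from the same pools. Total RNA of each culture was hybridized to 1 Bovine Gene 1.0 ST Array. The p-values therefore measure the spread between cultures of the same density, without pairing.

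Caspases are made as inactive proenzymes. Initiator caspases are activated on adaptor platforms, CASP8 at death receptors through FADD and CASP9 on the apoptosome, and they then cleave executioner caspases such as CASP6. CFLAR (FLIP) resembles CASP8 without its protease activity and competes for the death receptor complex, and XIAP binds and blocks CASP9 and the executioners. CASP4 belongs to the inflammatory branch, which senses bacterial lipopolysaccharide in the cytosol. In the ovary, the death of GC by apoptosis is a known part of follicle atresia.

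Values are log2 signals as deposited, and a difference is the mean at high density minus the mean at normal density on this scale. Differences were tested with limma over all transcript clusters, with Benjamini-Hochberg adjusted p. A gene is termed called when its fold change exceeds 1.5 in size and both p and adjusted p lie below 0.05. The background level of 4.62 is the 95th percentile of the 82 reporter control rows. An exact permutation test between 3 and 3 cultures cannot give a p below 0.1.

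Both called genes were proteases, CASP4 of the inflammatory branch and CASP8 of the death receptor branch, and both were lower at high density. The other initiators CASP2 and CASP9, the platform gene APAF1 and the inhibitors XIAP and CFLAR had lower means without being called, and CASP6 lay at the background. Of the 8 genes 2 were called, both down, while 7.49% of all transcript clusters were called in either direction, 3.51% down and 3.97% up. An adjusted p below 0.05 at any fold was reached by the same 2 genes, against 19.1% of all. The mean was lower at high density for all 8 genes, as it was for 46.4% of all transcript clusters. The median difference was −0.20 over the 8 genes, −0.21 over the 7 above background and 0.02 over all transcript clusters.

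**Figure D1:**
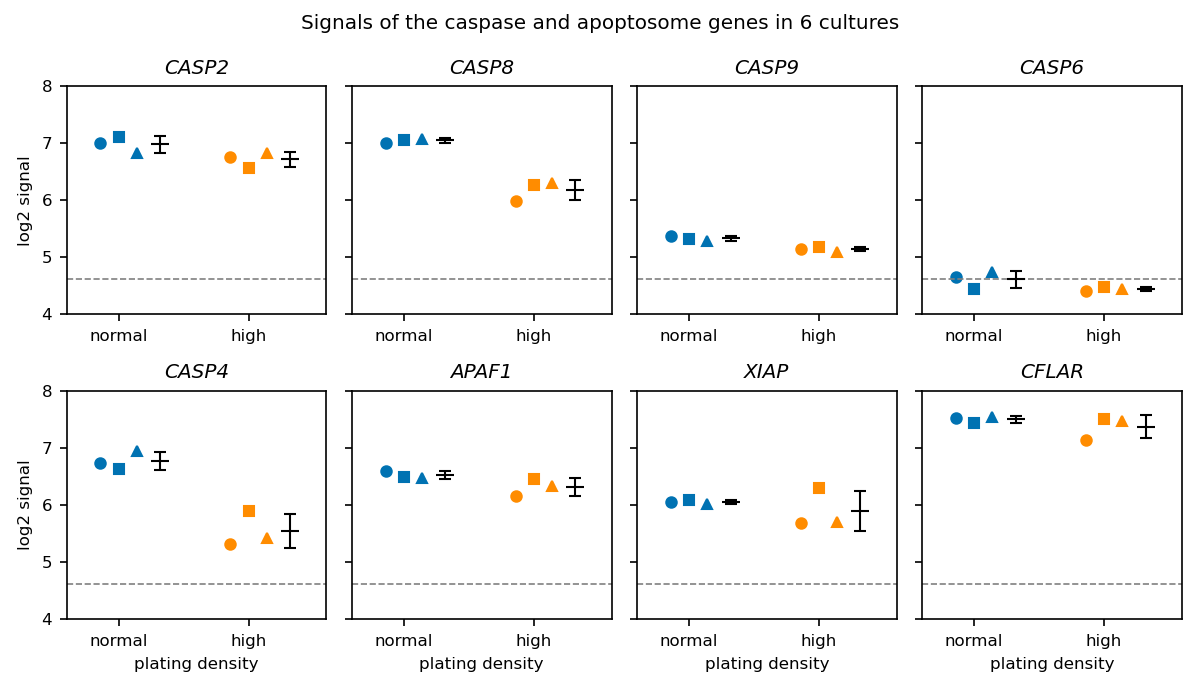
Log2 signal (vertical axis) of each gene in the cultures plated at normal (blue) and high (orange) density, with replicate 1 as a circle, replicate 2 as a square and replicate 3 as a triangle. Black marks are means with SD (n = 3) and the dashed line is the background level of 4.62. The groups of CASP4 and CASP8 stand clearly apart, CASP6 lies around the dashed line, and high density replicate 2 of XIAP lies above all normal density cultures.

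CASP8 is the initiator caspase of the death receptors. Its signals were 7.00, 7.06 and 7.08 in normal density replicates 1, 2 and 3, and 5.98, 6.27 and 6.30 in high density replicates 1, 2 and 3. Every high density culture lay below every normal density culture, by far more than the spread within a density, and replicate 1 was the lowest. The means were 7.05 ± 0.04 and 6.18 ± 0.17 (SD, n = 3). With a limma adjusted p of 0.00107, CASP8 fell by 0.86 log2 units (standard error 0.10), to 55.0% of its normal density level. The 95% confidence interval of the 1.82-fold fall was 1.55 to 2.13.

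CFLAR encodes the competitor of CASP8 at the same receptor complex. At normal density its signals were 7.52, 7.43 and 7.54, and at high density 7.14, 7.51 and 7.47. The groups overlapped, since high density replicates 2 and 3 lay within the normal density range and only replicate 1 was lower. The difference was −0.13, with a 95% confidence interval from −0.38 to 0.13 (limma's adjusted p = 0.479). Without high density replicate 1 it was −0.01.

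To compare CASP8 and CFLAR within a culture, the CFLAR signal was subtracted from the CASP8 signal of the same array, which also removes any shift common to the array. Signals of different transcript clusters are not on a common scale, so only the change of this difference between the densities can be read. This difference averaged −0.45 ± 0.07 in the normal and −1.19 ± 0.05 in the high density cultures (SD, n = 3). The change of −0.74 was larger than the spread of either group, and the groups did not overlap. CASP8 and CFLAR therefore changed unequally in all high density cultures, replicate 1 included, in which both genes had their lowest signal. The comparison was chosen after the values were seen and is a description without a test.

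CFLAR and CASP8 are near neighbours in the bovine RefSeq gene table of assembly ARS-UCD2.0, separated by FLACC1 and LOC100848685. On the other side CASP8 is followed by TRAK2, which had a difference of −0.21 (limma's adjusted p = 0.0654), and STRADB with −0.20 (limma's adjusted p = 0.131). Neither was called. Within 2 protein-coding genes on either side of the 8 genes, 23 neighbours were measured and 1 was called, GRIA3 beside XIAP, which rose by 0.69. Over all transcript clusters 7.49% were called.

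CASP4 showed the largest difference of the 8 genes. Cattle CASP4 also carries the older name CASP13 in the RefSeq table, so the CASP13 of the fixed list of other caspases is this gene. Its signals were 6.73, 6.63 and 6.95 in normal density replicates 1, 2 and 3, and 5.32, 5.89 and 5.42 at high density. The groups did not overlap, and high density replicate 2 kept the highest of the high density signals. The means were 6.77 ± 0.17 and 5.54 ± 0.31 (SD, n = 3), all above the background level. With a limma adjusted p of 0.00201, CASP4 fell by 1.23 log2 units (standard error 0.16), to 42.8% of the normal density level, a 2.34-fold fall with a 95% confidence interval of 1.80 to 3.04.

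CASP1, the inflammasome protease, is the neighbour of CASP4 in the RefSeq table. It was not detected above background, and the densities gave 1.75 ± 0.06 and 1.75 ± 0.08 (SD, n = 3), normal density first. PDGFD, the growth factor gene on the other side of CASP4, had a difference of −0.11 and was not called (limma's adjusted p = 0.347).

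CASP4 is also known from myeloid cells, so markers of leukocytes were examined beside it. All 9 of them, among them PTPRC, CD68, CD14 and CSF1R, lay at or below the background level at both densities, and 0 of 9 were called by limma or the methods' t-test, with 2 at an unadjusted p below 0.05 in limma, PTPRC lower and CD14 higher. Their mean log2 signal was between 3.16 and 3.22 in the normal density cultures and between 3.14 and 3.34 in the high density cultures. The fall of CASP4 was measured between signals that lay above background in all 6 cultures.

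CASP9, the initiator of the apoptosome, had signals of 5.38, 5.33 and 5.29 at normal density and 5.15, 5.18 and 5.10 at high density. The groups were close but did not overlap, and the spread within a density was small, with SD of 0.05 and 0.04. The difference of −0.19 (95% confidence interval −0.35 to −0.03) corresponds to 87.6% of the normal density level and was not called (limma's adjusted p = 0.0939). With the methods' t-test, array weights or a filter at the background level the adjusted p was 0.0464, 0.0351 and 0.0380, with the fold change still below the threshold.

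APAF1 forms the wheel on which CASP9 is activated. At normal density its signals were 6.60, 6.49 and 6.47, and at high density 6.15, 6.46 and 6.33. The groups were separated only by the narrow gap between normal density replicate 3 and high density replicate 2. The difference was −0.21 (95% confidence interval −0.43 to 0.02, limma's adjusted p = 0.185), and without high density replicate 1 it was −0.13.

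XIAP, the inhibitor that binds CASP9 and the executioners, split the high density cultures. Its signals were 6.06, 6.09 and 6.01 at normal density, and 5.68, 6.30 and 5.69 at high density. Replicate 2 lay above all normal density cultures and the other two below them, which gave an SD of 0.36 at high density against 0.04 at normal density. The difference was −0.16 (95% confidence interval −0.55 to 0.23, limma's adjusted p = 0.557). Without high density replicate 2 it was −0.37 (limma's adjusted p = 0.00865), still below the fold threshold, and without high density replicate 1 or 3 it was −0.05 and −0.06.

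CASP9 was also set against APAF1 and XIAP within each culture. The CASP9 signal minus the APAF1 signal averaged −1.19 ± 0.03 in the normal and −1.17 ± 0.15 in the high density cultures (SD, n = 3). High density replicate 1, at −1.01, lay above all normal density cultures and replicates 2 and 3, at −1.28 and −1.23, lay below them. For CASP9 minus XIAP the means were −0.72 ± 0.04 and −0.75 ± 0.33. Here high density replicates 1 and 3, at −0.53 and −0.60, lay above all normal density cultures, and replicate 2, at −1.13, lay below them. Like the comparison of CASP8 with CFLAR, these are descriptions without a test.

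**Figure D2:**
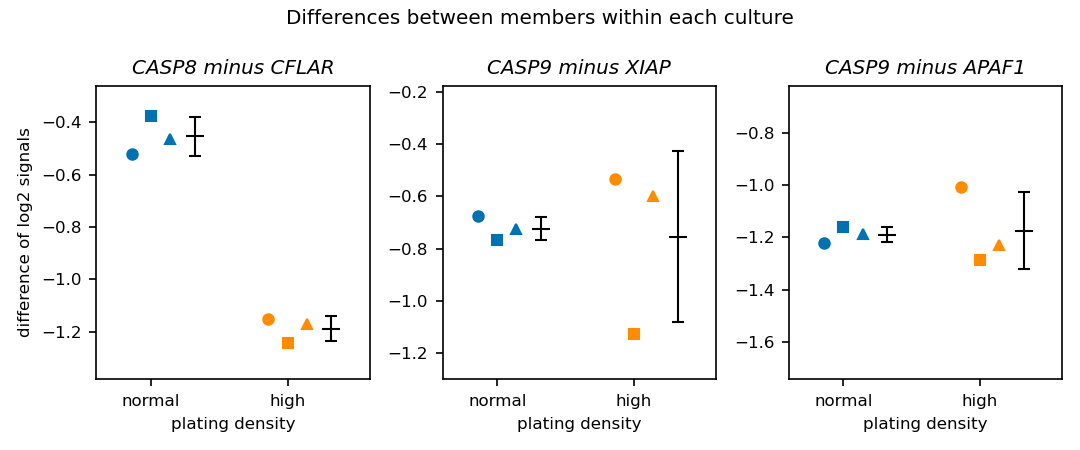
Difference of the log2 signals of 2 genes within each culture (vertical axis, each panel spanning the same length) at normal (blue) and high (orange) density, with replicates 1, 2 and 3 as circle, square and triangle and means with SD (n = 3) in black. CASP8 minus CFLAR moved from −0.45 to −1.19 with all cultures apart, while for CASP9 minus XIAP and CASP9 minus APAF1 the high density cultures lay on both sides of the normal density ones.

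CASP2, an initiator that is activated on a platform of PIDD and CRADD, had signals of 6.99, 7.11 and 6.82 at normal density and 6.75, 6.57 and 6.83 at high density. High density replicate 3 reached the lowest normal density culture, so the groups overlapped. The difference was −0.26 (95% confidence interval −0.51 to −0.01, unadjusted p = 0.0410, adjusted p = 0.136 from limma), and it was not called.

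CASP6, an executioner that cleaves lamins, had signals of 4.66, 4.44 and 4.73 at normal density and 4.40, 4.48 and 4.45 at high density. Both means, 4.61 and 4.44, lay at or below the background level, so its difference is not read as a fold change and enters the counts and the plot of the lists alone. The groups overlapped.

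In all, the groups of 3 did not overlap for 4 of the 8 genes, CASP4, CASP8, CASP9 and APAF1, while this was the case for 37.3% of all transcript clusters. The differences stayed below 0 in every alternative fit that gave one, the array scalings and each culture left out included. CASP6 was not tested under the background filter, and treat was read for its calls alone. CASP4 and CASP8 were called in all of these except limma's test against the fold threshold itself (treat), in which 0 of 8 were called, against 1.98% of all transcript clusters, with adjusted p of 0.101 for CASP4 and 0.386 for CASP8. In that test the unadjusted p was below 0.05 for these 2 genes, 0.00237 and 0.0121. The falls with each culture left out were between −1.40 and −1.11 for CASP4 and between −0.92 and −0.76 for CASP8.

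**Figure D3:**
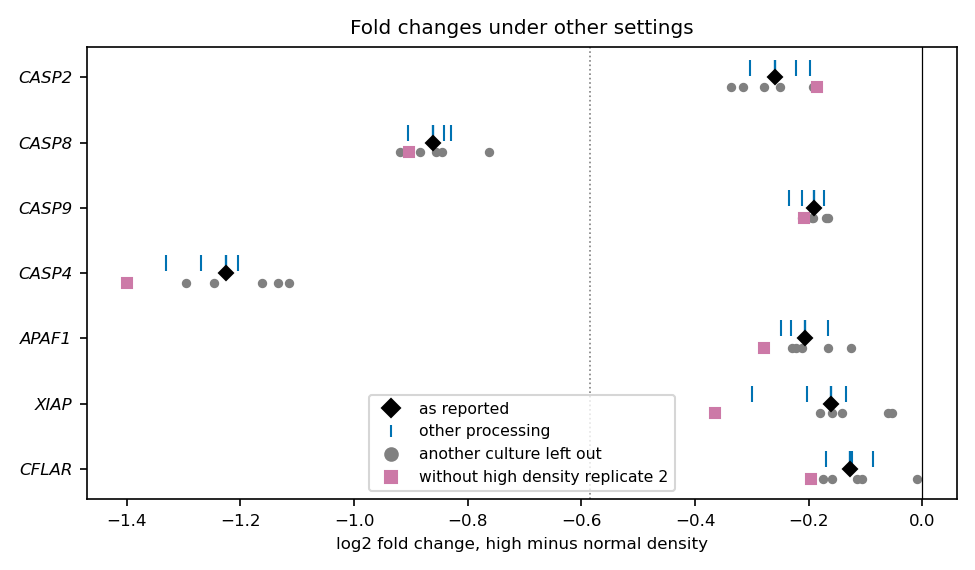
Log2 fold change of the 7 genes above background, high minus normal density (horizontal axis), as reported (black), under other processing (blue ticks) and with each culture left out (grey, and pink for high density replicate 2). The dotted line is the fold threshold of the methods. CASP4 and CASP8 lie beyond it in all of them, the other genes lie between it and 0, and XIAP moves most, to −0.37 without high density replicate 2.

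High density replicate 2 stood apart from the other high density cultures. Over all transcript clusters its distance to the nearest culture of its density was 45.0, against 35.3 for the other two, and its score on the first principal component, 22.3, was nearer to the normal density cultures than their 32.8 and 36.6. It had the highest high density signal for 6 of the 8 genes, which was also true of 46.7% of all transcript clusters with a lower mean at high density. GC markers were present, and all 8 of them were above background in at least 1 density, but 5 of the 8 were called down at high density, among them FSHR from 6.93 to 4.73, and AMH had a lower mean without a call. The other two had higher means without overlap, NR5A2 from 9.37 to 9.78 (limma's adjusted p = 0.00482) and GATM from 8.09 to 8.25 (limma's adjusted p = 0.149), both below the fold threshold. The mean log2 signal of this list was between 7.77 and 7.95 at normal density and between 6.71 and 6.77 at high density, and its part in the falls of CASP4 and CASP8 was not tested. Of 20 markers of theca, endothelial, red blood and surface epithelial cells 3 were called, the rises of HBA, INSL3 and ACTA2. HBB, CYP17A1, PECAM1 and CDH5 lay below background in both groups. Uncalled but above background were NR2F2, with overlapping groups, and VWF and MSLN, higher without overlap, from 5.39 to 5.70 and from 5.61 to 5.75. Below background, KDR was higher and TEK lower, with limma's adjusted p of 0.0275 and 0.0303. All 4 surface epithelium markers had higher means at high density. In RNA from whole cultures, fewer cells that express a gene cannot be told apart from less RNA per cell.

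The remaining genes of the pathway were taken from 5 lists written from general knowledge. Of their 69 transcript clusters, 5 were called up and 3 down, 11.6% together, beside the 7.49% over the whole table. The median difference over the lists was 0.04. In 46 of the 69 transcript clusters at least 1 group mean lay above background.

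CASP14, the caspase of skin cornification, is on the list of other caspases. It lay below background at both densities, with 3.02 ± 0.08 and 3.12 ± 0.12 (SD, n = 3), and was not called (limma's adjusted p = 0.485).

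The death receptor list held 26 transcript clusters. Of these, 4 were called up and 0 down (3.97% and 3.51% over the whole table), while 9 had a lower mean (46.4%). The rises were those of receptors. TNFRSF10A, named as a receptor for the ligand TRAIL (TNFSF10), rose by 1.23 and 1.26 in its 2 transcript clusters (limma's adjusted p = 1.81e-04 and 2.07e-04). TNFRSF10D, named as a decoy receptor of the same ligand, rose by 1.78 (limma's adjusted p = 1.00e-04). These receptors are close relatives, and whether the array's probes tell them apart was not tested. TNFRSF21 (death receptor 6) rose from 5.63 ± 0.08 to 7.08 ± 0.005 (SD, n = 3), by 1.45.

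Between the receptors and CASP8, no called gene lay above background. The adaptor FADD had a difference of 0.14 (limma's adjusted p = 0.354), and the receptor FAS of −0.36 (limma's adjusted p = 0.119) with overlapping groups. In the death receptor list CYLD and TNFAIP3 passed the adjusted p but not the fold threshold. Their differences were −0.43 and 0.47 (limma's adjusted p = 0.00990 and 0.0201). The receptor TNFRSF1A had a difference of −0.26 without overlap (limma's adjusted p = 0.0959). TNFSF10 and FASLG, the ligands, lay below background at both densities. CASP8AP2, a protein that binds CASP8 and also takes part in histone RNA processing, was called down, but with signals of 3.74 and 3.03, both below the background level, so no fold change is given.

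In the list of mitochondrial release factors, IAPs and adaptors, 14 transcript clusters were measured, and CASP8AP2 was the called one. Cytochrome c (CYCS), the activator of APAF1, was measured at 7.10 ± 0.07 and 7.22 ± 0.05 (SD, n = 3), a difference of 0.12 (limma's adjusted p = 0.307). DIABLO, which relieves the block by XIAP, had a difference of −0.26 (limma's adjusted p = 0.179). The relatives of XIAP in this list did not pass the fold threshold. BIRC5 (survivin, also a mitotic protein) and BIRC6 had an adjusted p of 0.0259 and 0.0211 with differences of −0.42 and −0.39, and BIRC3 had a difference of −0.06.

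In the list of the inflammasome and pyroptosis, to which CASP4 is linked, 1 of 13 transcript clusters was called, beside 7.49% of all. This was DFNA5 (gasdermin E), a pore-forming protein that caspase cleavage releases, which rose from 5.55 ± 0.11 to 7.28 ± 0.07 (SD, n = 3), by 1.73 (limma's adjusted p = 2.80e-05). GSDMD, the gasdermin that CASP4 is known to cleave, lay below background at both densities, with 4.27 and 4.42. The sensors NLRP1, NLRP3 and NLRC4, the adaptor PYCARD and the cytokine IL1B were below background as well. IL18, a cytokine substrate of this branch, had means of 9.72 and 9.47, normal density first, without a call (limma's adjusted p = 0.0834).

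Of the 13 caspase substrates measured, 2 were called, both down (3.51% over the whole table), and 9 had a lower mean (46.4%). LMNB1, a nuclear lamin, fell by 0.73 (limma's adjusted p = 0.00502) and PANX1, a membrane channel that caspase cleavage opens, by 0.63 (limma's adjusted p = 0.00184). The inhibitor of the caspase-activated DNase, DFFA, and the chromatin protein ACIN1 passed the adjusted p but not the fold threshold, with differences of −0.36 and −0.47.

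**Figure D4:**
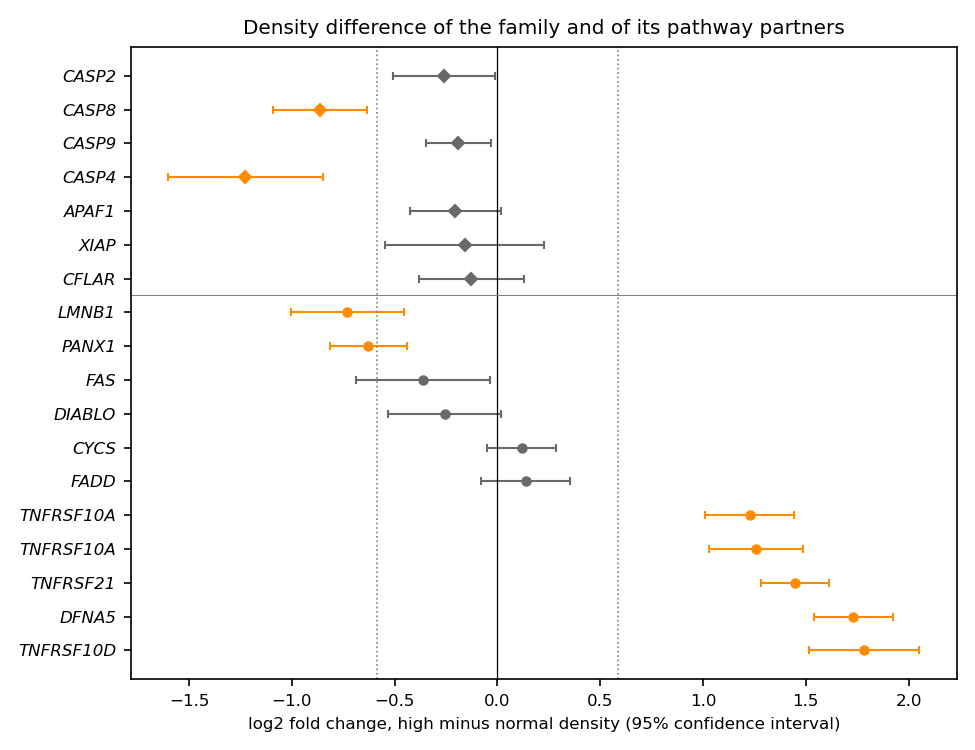
Log2 fold change, high minus normal density (horizontal axis), with its 95% confidence interval from limma, for the 7 genes above background (diamonds) and, below the line, for the called transcript clusters and direct partners from the 5 lists that lay above background (circles). Orange marks are called and dotted lines are the fold threshold. CASP4 and CASP8 lie on the left and the receptors TNFRSF10A, TNFRSF10D and TNFRSF21 and DFNA5 on the right, with CYCS and FADD near 0.

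**Figure D5:**
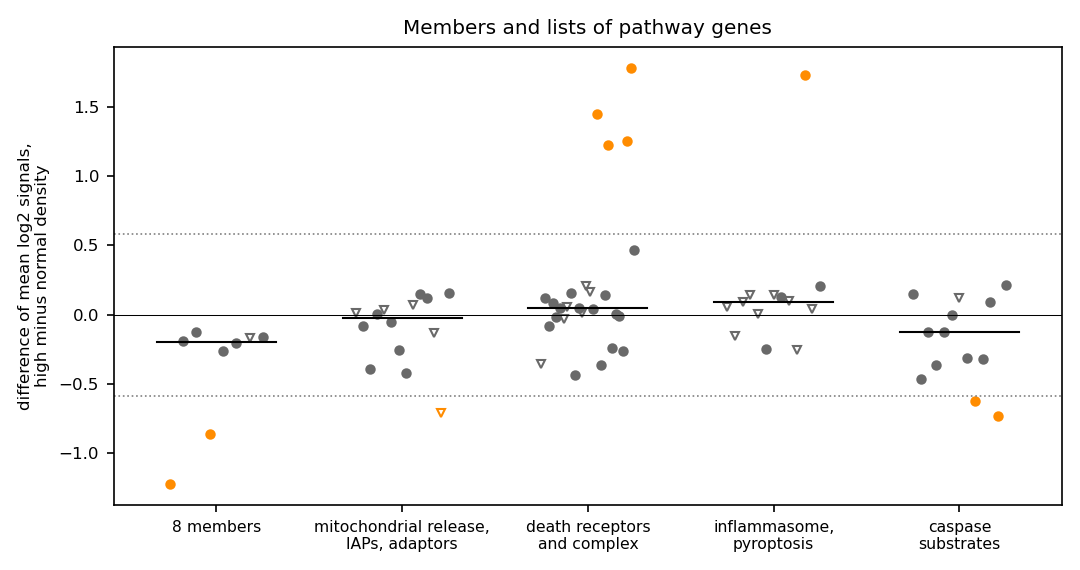
Difference of the mean log2 signals, high minus normal density (vertical axis), of each transcript cluster of the 8 genes and of 4 of the lists. Filled circles had at least 1 group mean above background and open triangles had none, the open triangle among the 8 genes is CASP6, orange marks were called, horizontal bars are medians and dotted lines are the fold threshold. All 8 genes lie below 0, with a median of −0.20, and the called rises belong to the death receptor and pyroptosis lists.

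The genes whose pattern over the 6 cultures was most like that of the called genes were sought among 10420 named transcript clusters with both means above background, by Pearson correlation. For CASP8 these were HOXC8, a homeobox gene (r = 0.999, difference −1.06), LOC533444 (r = 0.999, −0.33) and FKBP15 (r = 0.999, −0.55). For CASP4 they were CHORDC1 (r = 0.999, difference −0.43), C29H11orf83 (r = 0.999, −0.20) and KCTD10 (r = 0.998, −0.33). The 6 cultures fall into 2 densities, so these values mostly describe the shared separation between them and carry no test.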

How the data were processed

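RNA of 6 GC cultures, 3 per plating density, was hybridized to 6 arrays of the type named above. In Affymetrix Expression Console the authors ran RMA on the scans (background reduction, normalization, summary per gene). The deposited log2 signals were used unchanged. The genome build of the array annotation is not given in the sources used here, so no coordinates or sequences are given. The table has 26773 rows, 6199 without a symbol, and 0 columns of other samples. Symbols were matched exactly, and 7 of the 8 genes also matched the RefSeq table by accession.

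limma 3.58.1 in R 4.3.3 (lmFit, eBayes, no covariates) compared the densities, with Benjamini-Hochberg adjustment over all rows and the thresholds of the methods. The script was tested on simulated data. Alternatives were the methods' t-test (analysis of variance), trended robust variances, array weights, the replicate block, a repeated quantile normalization, median centring, a background filter, treat, and each culture left out. The number of arrays limits the precision. The 8 genes and the lists were chosen with earlier results of these data known. Named genes are the 8, called genes of the lists, direct partners, and the 3 most correlated genes per called gene. Other genes were named after their values were seen, and some genes of the lists are not reported here. Figures were drawn with matplotlib 3.10.9.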

Additional observations from a re-analysis of the deposited data

How the results depend on the processing

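CASP4 and CASP8, and no other gene of the 8, were called with the methods' t-test, trended robust variances, array weights, a repeated quantile normalization, median centring, a background filter and each culture left out. With treat, 0 of the 8 genes and 5 of the 69 listed transcript clusters were called, a stricter test by construction that called 529 of 26773 transcript clusters in all. In the other settings 7 or 8 of the 69 were called. The adjusted p was between 3.11e-04 and 0.0355 for CASP4 and between 3.15e-04 and 0.0186 for CASP8. No difference of the 8 genes changed its sign in the fits that gave one. CASP6 was not tested under the background filter.

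Cultures with the same replicate number did not deviate together (correlations 0.05, −0.05 and −0.04 over all transcript clusters). With 3 cultures per density this cannot show whether the numbers mark shared cell pools. With the replicate block 2 of the 8 genes were called, CASP4 and CASP8, and 2020 transcript clusters in all, against 2005 without it. The differences of XIAP, APAF1 and CFLAR moved by over 1.5 times when single high density cultures were left out, and CASP6 is limited by background.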
